A study of Cavia porcellus with 24 samples.

Results

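Hspe1 and Chchd4 are 2 of the 18149 genes measured by RNA sequencing in endothelial RNA of the guinea pig carotid artery. They are rows ENSCPOG00000027474 (Hspe1) and ENSCPOG00000034611 (Chchd4) of the table. They were chosen by their higher counts in PC-H than in PC-C, 2 groups of F1 animals, so every value that involves a PC-C or PC-H library is given as a description with no test. The mRNA was flushed with TRIzol from a carotid artery of 24 Hartley guinea pigs aged 20 weeks, 3 in each of 8 groups. F0 dams ate 100% of the ad libitum ration (PC, prenatal control) or 70% of it (PR, prenatal restriction), raised in PR to 90% from day 34 of gestation to the end of lactation.

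All offspring had chow freely, and from 8 weeks of age they ate either control chow (13% of energy from fat) or high fat chow (38%) for 12 weeks. The paper reports that animals on high fat chow ended lighter in both generations, and gives lower food intake as the likely reason. The make-up of the chow and the lower weight cannot be told apart in the diet comparisons here. The F1 groups are PC-C, PC-H, PR-C and PR-H, where the last letter is the diet. In F2 the groups descended from PC dams are PC-C-C and PC-C-H and those descended from PR dams PR-C-C and PR-C-H, bred from F1 females kept on control chow and unrelated males, so that no F2 animal had a mother fed high fat chow. Both sexes were used, and 6 of the 23 listed animals were female. According to the animal list of the study, a mixture of both chows was fed to animal 34 of PC-H for part of the trial. The library of animal 51 of PC-C-H, absent from that list, was left out of the tests, which leaves 2 animals in PC-C-H.

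Most mitochondrial proteins are made in the cytosol and reach their folded state after import. Hspe1 encodes the small co-chaperonin that caps the Hspd1 chaperonin ring in the mitochondrial matrix, where imported proteins fold. Chchd4 encodes the oxidoreductase of the intermembrane space that traps small cysteine-rich proteins there by forming disulfide bonds in them. In endothelium, mitochondria are known more for signalling and redox control than for energy supply.

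Libraries held 14061522 to 31148123 reads on genes, with a median of 25618572. Values are normalized counts, that is reads divided by 1 size factor per library. Hspe1 rested on 1033 to 3207 reads a library and Chchd4 on 278 to 918, so counting error alone was 1.77 to 3.11% of a value for Hspe1 and 3.30 to 5.998% for Chchd4. Of 29 marker genes of endothelium, smooth muscle, fibroblasts and blood, 0 could be paired with an identifier. The tissue label could therefore not be checked here. The paper reports endothelial enrichment from its own test of vascular markers. In bulk RNA, fewer cells of a type and less RNA per cell cannot be told apart. Litters are not given in the labels, so p-values measure the spread between animals as sampled. In each line and generation the paper gives fewer mothers than animals sequenced, so some animals shared a mother. According to the paper, diets were assigned with the aim that siblings would get different ones. Siblings may therefore lie on both sides of a diet comparison, while the tests treated animals as independent. The ration was fed to F0 dams, and comparisons of it here take offspring, not dams, as the unit.

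In F1 animals of fully fed dams, both genes were higher on high fat chow. Hspe1, the matrix co-chaperonin, had normalized counts of 1552, 1614 and 1746 in PC-C and of 2705, 2074 and 2899 in PC-H. Chchd4, the intermembrane space oxidoreductase, had 313, 298 and 397 in PC-C and 769, 512 and 830 in PC-H. Every PC-H animal lay above every PC-C animal for both genes, and PC-H animal 21 was the lowest of its group for both. For scale, 6.81% of the 13224 genes tested had no overlap with PC-H on the higher side, and nothing is read from this because it is the comparison that chose the genes. The difference of mean log2(normalized count + 1) was 0.63 (SE 0.18) for Hspe1 and 1.05 (SE 0.22) for Chchd4, and 6.87% and 3.45% of the genes tested had a difference at least as high.

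**Figure D1:**
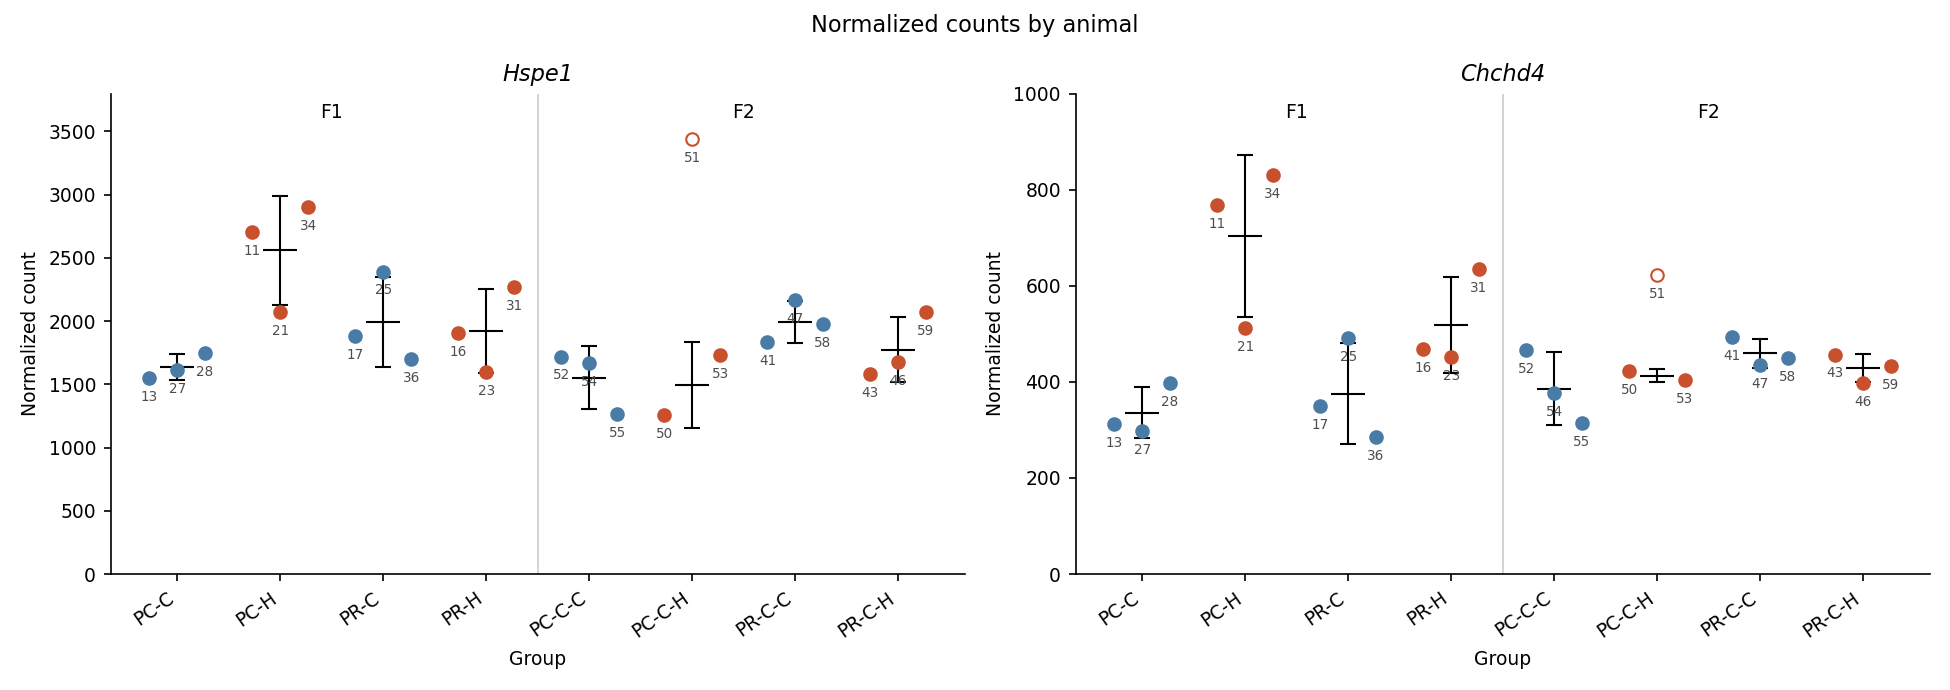
Normalized count of Hspe1 (left) and Chchd4 (right) in each animal, by group on the x axis, with the animal's number under its point. Blue points are control chow and red points high fat chow, black bars are the group mean ± SD, and the open point is PC-C-H animal 51, which is outside the mean. PC-H is the highest group for both genes.

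In F1 animals of restricted dams neither gene passed the test, and Chchd4 had the larger difference between diets. Hspe1 was 1885, 2392 and 1700 in PR-C and 1903, 1599 and 2267 in PR-H. The groups overlapped over most of their range, with the highest value in PR-C animal 25 and the lowest in PR-H animal 23. The means were 1992 ± 358 and 1923 ± 335 (SD, n = 3 each), and the log2 difference was -0.05 (SE 0.18, 95% interval -0.42 to 0.32; limma, adjusted p = 1). Of the genes tested, 58.2% had a log2 difference at least as high.

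Chchd4 was 349, 491 and 285 in PR-C and 468, 452 and 634 in PR-H. PR-C animal 25 lay above 2 of the 3 PR-H animals, so the groups overlapped, and 4.76% of all genes tested lay higher in PR-H without overlap. The means were 375 ± 105 and 518 ± 101 (SD, n = 3 each), a log2 difference of 0.49 (SE 0.22, 95% interval 0.03 to 0.94), and 6.34% of the genes tested had a difference at least as high. The unadjusted p in limma was 0.0372 and the Benjamini-Hochberg adjusted p was 1, so Chchd4 did not pass. In this comparison limma called 0.0227% of the genes tested, and 0 of the 2 genes described here. Of the 13224 genes tested, 428 had an unadjusted limma p under 0.05. In DESeq2 the unadjusted p was 0.0394 and the adjusted p was 1.

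The diet responses in F1 were also set against each other between the dams' rations. The response in PR minus that in PC was -0.68 (SE 0.25) on the log2 scale for Hspe1 and -0.56 (SE 0.31) for Chchd4. Both differences contain the PC-C and PC-H libraries that chose the genes and were therefore not tested. On control chow the log2 difference PR-C minus PC-C was 0.27 for Hspe1 and 0.13 for Chchd4. On high fat chow, PR-H minus PC-H was -0.41 for Hspe1 and -0.43 for Chchd4. The animals of the 2 rations overlapped in each of these comparisons.

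**Figure D2:**
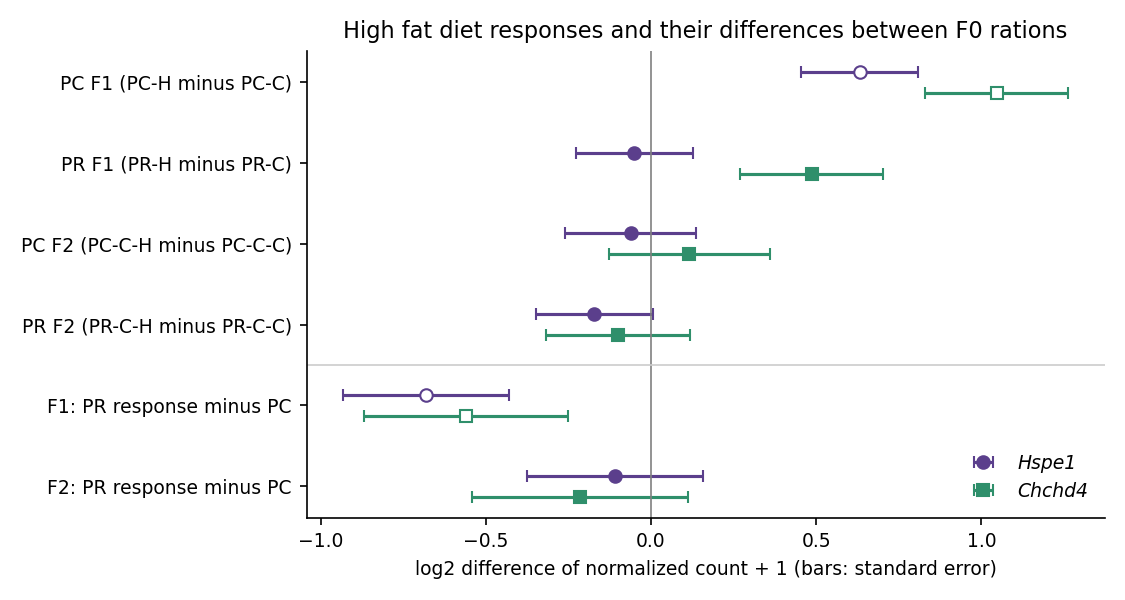
Difference of mean log2(normalized count + 1), high fat minus control chow, for Hspe1 (circles) and Chchd4 (squares) in the 4 arms, and below the line the PR response minus the PC response in each generation. Bars are standard errors from limma, and open symbols use the libraries that chose the genes. Among the filled symbols, Chchd4 in PR F1 (0.49) is the farthest from 0.

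In the F2 generation neither gene passed in either arm. Hspe1 was 1720, 1669 and 1268 in PC-C-C and 1254 and 1732 in PC-C-H, and Chchd4 was 465, 376 and 315 in PC-C-C and 422 and 403 in PC-C-H. The animals on high fat chow had values that spanned, or lay within, the range of those on control chow. The log2 difference was -0.06 (SE 0.20, 95% interval -0.48 to 0.35; limma, adjusted p = 0.983) for Hspe1 and 0.12 (SE 0.24, 95% interval -0.39 to 0.62; limma, adjusted p = 0.977) for Chchd4. limma called 0.00756% of all genes here, and 0 of the 2.

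In F2 animals of the PR line, Hspe1 was 1832, 2165 and 1975 on control chow (PR-C-C) and 1578, 1678 and 2069 on high fat chow (PR-C-H). Chchd4 was 493, 435 and 450 on control chow and 457, 398 and 432 on high fat chow. The high fat animals were on average lower for both genes and overlapped with the controls. The log2 difference was -0.17 (SE 0.18, 95% interval -0.54 to 0.20; limma, adjusted p = 0.709) for Hspe1 and -0.10 (SE 0.22, 95% interval -0.55 to 0.35; limma, adjusted p = 0.882) for Chchd4, while 2.61% of all genes were called and 0 of the 2. The PR response minus the PC response in F2 was -0.11 (SE 0.27) for Hspe1 and -0.21 (SE 0.33) for Chchd4, both with a limma adjusted p of 1.00. For that difference limma called 0% of all genes at the adjusted threshold, 349 had an unadjusted p under 0.05, DESeq2 called 23 and edgeR 0.

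A group of 6 libraries stood apart on 302 genes that differed between PR-C and PR-C-C, of which 125 were higher and 177 lower in them. They are all 3 of PR-C-C, PC-C-C animals 54 and 55, and PC-C-H animal 51, and neither Hspe1 nor Chchd4 is among those genes. Within PC-C-C, animals 54 and 55 were the 2 lowest for both genes and animal 52, outside the division, the highest. Because the genes were taken from PR-C vs PR-C-C, the opposite sides of those 2 groups follow from that choice, and only the places of the other libraries do not. Of the groups in the 23 libraries tested only PC-C-C held both sides, so a term for the division takes its size from animal 52 against 54 and 55. With that term, the log2 diet response in PR F2 was -0.41 for Hspe1 and -0.53 for Chchd4, and in PC F2 it was -0.22 and -0.17, none past the threshold. With animal 51 included, the response in PC F2 was 0.35 for Hspe1 and 0.31 for Chchd4, also short of it.

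Over the 3 arms that did not choose the genes, neither gene's mean diet response passed. For Hspe1 it was -0.09 (SE 0.11, 95% interval -0.32 to 0.13; limma, adjusted p = 0.703) on the log2 scale. For Chchd4 it was 0.17 (SE 0.13, 95% interval -0.11 to 0.44; limma, adjusted p = 0.561). In this mean limma called 2.19% of all genes, and 0 of the 2. A two-sided exact permutation of diet within the arms, over 17 animals and 4000 labelings with 0.00025 as the smallest p it allows, gave p = 0.387 for Hspe1 and p = 0.209 for Chchd4. The change of the PR diet response from F1 to F2 was -0.12 (SE 0.25; limma, adjusted p = 0.936) for Hspe1 and -0.58 (SE 0.31; limma, unadjusted p = 0.0719, adjusted p = 0.573) for Chchd4, where 0.0756% of all genes and 0 of the 2 were called. With the term for the division, this change was -0.36 for Hspe1 and -1.02 for Chchd4, both with a limma adjusted p of 0.999, and the mean of the 3 responses was -0.23 for Hspe1 and -0.0736 for Chchd4, both with a limma adjusted p of 0.995.

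The F0 ration was also compared in grandoffspring, with animals rather than dams as the unit. On control chow, each PR-C-C animal had a higher Hspe1 count than each PC-C-C animal, 1832 to 2165 against 1268 to 1720, where 6.11% of all genes lay so. The log2 difference was 0.37 (SE 0.18; limma, unadjusted p = 0.0509, adjusted p = 0.982). For Chchd4 the groups overlapped, and the log2 difference was 0.27 (SE 0.22; limma, adjusted p = 0.982). On high fat chow the log2 difference PR-C-H minus PC-C-H was 0.26 (SE 0.20) for Hspe1 and 0.05 (SE 0.24) for Chchd4, both with a limma adjusted p of 1, and animal 51 turned them to -0.15 and -0.14. In each of these 2 comparisons limma called 0% of all genes; 615 had an unadjusted p under 0.05 on control chow and 289 on high fat chow, DESeq2 called 21 and 16 and edgeR 0 and 0.

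Between generations of the PR line, Hspe1 differed by 0.01 (SE 0.18; limma, adjusted p = 0.987) on the log2 scale on control chow and by -0.11 (SE 0.18; limma, adjusted p = 1) on high fat chow, F2 minus F1. Chchd4 differed by 0.33 (SE 0.22; limma, adjusted p = 0.494) and -0.26 (SE 0.22; limma, adjusted p = 1), and with the term for the division the control chow values were 0.25 for Hspe1 and 0.76 for Chchd4. The control chow comparison had 2.28% of all genes called. The high fat one had 0% called, with 272 genes at an unadjusted p under 0.05, 9 called by DESeq2 and 0 by edgeR, and 0 of the 2 genes passed in either. In the PC line, PC-C-H minus PC-H was -0.78 for Hspe1 and -0.74 for Chchd4, given as a description since PC-H chose the genes. Both PC-C-H animals lay below all PC-H animals for both genes, and 15.4% of all genes lay so.

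Ordered by their mean log2 level, the groups ran from PC-H at the top to PC-C-H at the bottom for Hspe1, with PR-C-C, PR-C, PR-H, PR-C-H, PC-C and PC-C-C between them. All 4 PR groups lay above PC-C and above both PC F2 groups, but with animal 51 included the mean log2 level of PC-C-H was 10.93 rather than 10.53, above PR-H at 10.90 and PR-C-H at 10.78. For Chchd4 the order was PC-H, PR-H, PR-C-C, PR-C-H, PC-C-H, PC-C-C, PR-C and PC-C, and with animal 51 PC-C-H moved from 8.69 to 8.89, above PR-C-C at 8.84. Without animal 51, no pair of neighbours in either order was separated, since the animals of each overlapped with those of the next. The highest of the 23 libraries was 2.31 times the lowest for Hspe1 and 2.91 times for Chchd4.

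Within groups, the 2 genes tended to deviate the same way in PR F1, and less often so in F2. In the 17 animals outside PC-C and PC-H, the log2 deviations from the group mean had Pearson's r = 0.644 (permutation of animals within groups, two-sided, p = 0.0358) and Spearman's rho = 0.559 (permutation p = 0.0725). This is 1 relation, so no adjustment was made, and the 2 coefficients fell on opposite sides of the threshold. How many other genes had an r this high within groups was not counted. Without PR-C animal 25 and PC-C-C animal 55, the farthest from the median in Hspe1, r was 0.495. Both genes deviated the same way in 11 of the 17 animals, which were 6 of 6 in PR F1 and 5 of 11 in F2. In the 11 animals off the 6 libraries that stood apart, in groups with at least 2 such animals, r was 0.653 (permutation p = 0.0749), and without PR-C animal 25 and PR-H animal 31 it was 0.316. With TMM scaling r over the 17 animals was 0.652, and 0.456 without that same pair.

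**Figure D3:**
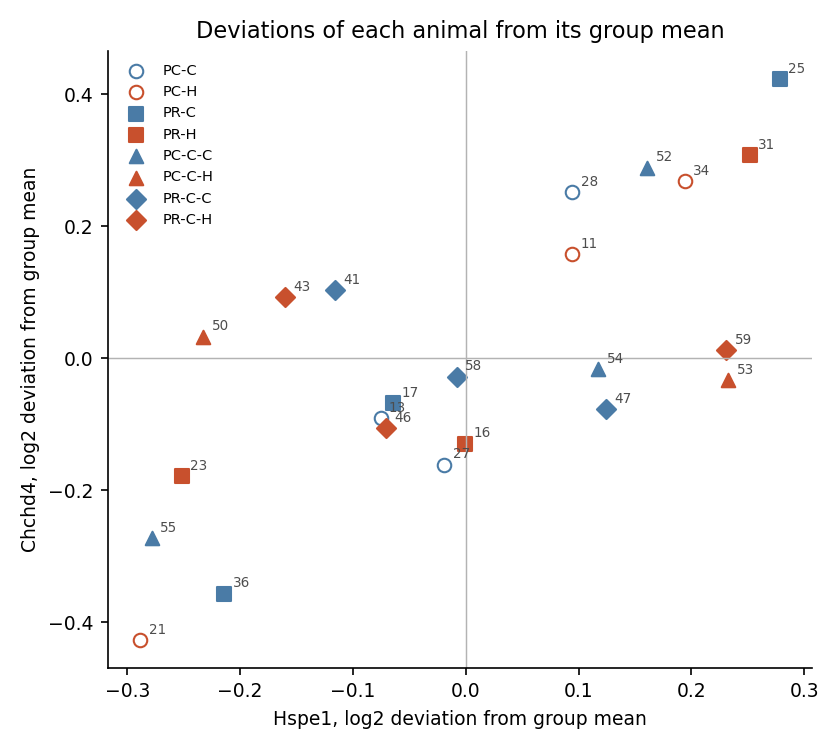
Deviation of each animal from its group mean of log2(normalized count + 1), Hspe1 on the x axis and Chchd4 on the y axis, with animal numbers. Open circles are PC-C and PC-H, which chose the genes, and filled symbols the other 17 animals. PR-C 25 and PR-H 31 lie at the upper right, and PR-C 36, PC-C-C 55 and PR-H 23 at the lower left.

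The count of Chchd4 relative to Hspe1 in the same library needs no scaling between libraries. This ratio was formed after the values were seen and is described with no test, and because transcript lengths were not used it says nothing about which mRNA was more abundant. Chchd4 was 18.5, 20.51 and 16.8% of Hspe1 in PR-C and 24.6, 28.3 and 28.0% in PR-H. In PC it was 20.2, 18.5 and 22.7% in PC-C and 28.4, 24.7 and 28.6% in PC-H. In both F1 arms each animal on high fat chow had a higher ratio than each on control chow. In PC F1 nothing is read from this, because these are the counts that chose both genes. Of the 13223 genes tested beside Hspe1, 3.04% had a ratio to Hspe1 that was higher in PR-H without overlap. In PC-H the share was 0.378%, but Hspe1, the divisor, was itself chosen for its higher counts there.

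In F2 the ratio overlapped between diets in both arms. It averaged 24.8 ± 2.26% in PC-C-C (SD, n = 3) and 28.5 ± 7.34% in PC-C-H (SD, n = 2). PC-C-H animal 51, outside that mean, had a ratio of 18.05%, below every other F2 animal. In the PR line it averaged 23.3 ± 3.43% on control chow and 24.5 ± 4.10% on high fat chow (SD, n = 3 each). The F2 control groups had mean ratios above those of both F1 control groups, 20.4% ± 2.15 in PC-C and 18.6% ± 1.86 in PR-C.

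**Figure D4:**
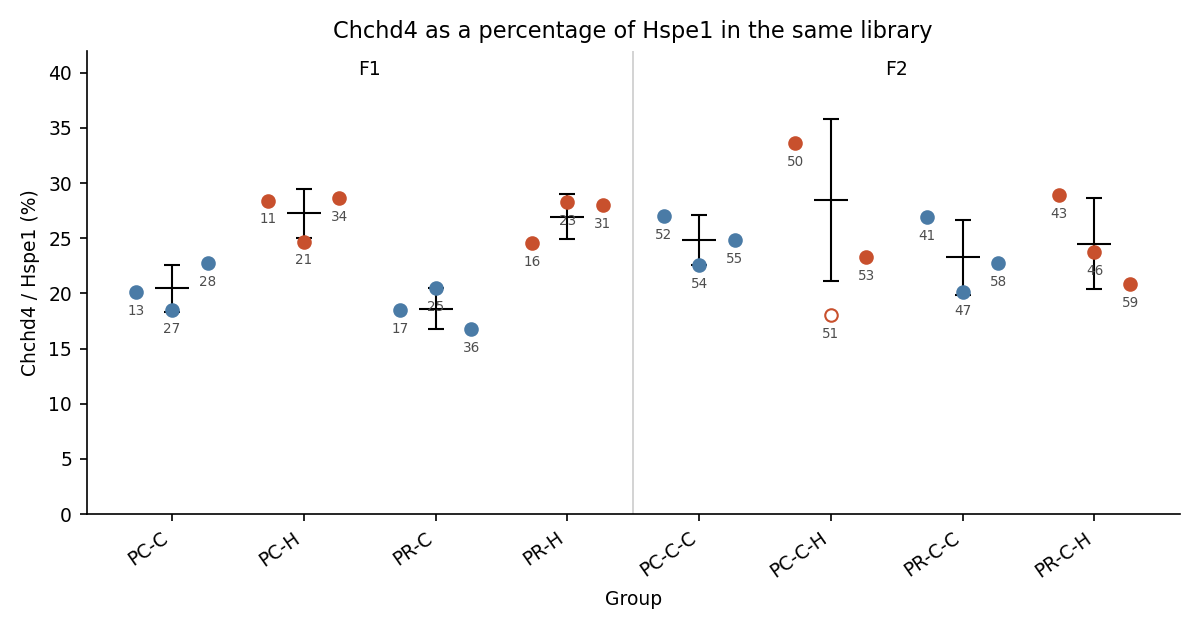
Chchd4 count as a percentage of the Hspe1 count in the same library, by group, with animal numbers; bars are the group mean ± SD and the open point is PC-C-H animal 51. The diets do not overlap in either F1 arm and overlap in both F2 arms. PC-C and PC-H are the libraries that chose the genes.

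Other genes of mitochondrial protein folding and import could rarely be named. Of 18 matrix chaperones and proteases only Hspe1 had a name, of 24 genes of intermembrane space import and the disulfide relay Chchd4 and Timm13, and of 25 genes of the membrane import complexes 0. All names come from the genes that the study lists for its comparison of diets in PC F1, so a direction in that comparison is not independent of the choice. Timm13, a small chaperone that escorts inner membrane proteins across the intermembrane space and is itself a Chchd4 substrate, averaged 429 ± 93.4 in PC-C and 761 ± 160 in PC-H (SD, n = 3 each), a log2 difference of 0.83. In PR-C it averaged 529 ± 83.9 and in PR-H 488 ± 71.4, a log2 difference of -0.12 (limma, adjusted p = 1). Its F2 differences were 0.10 in PC and -0.14 in PR, short of the threshold in both.

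A further 9 named genes encode mitochondrial proteins. In PC F1, 4 were higher on high fat chow, namely Tmem11, Vdac2, Ndufv2 and Prelid1, and 5 were lower, namely Gpd2, Polg, Hars2, Top1mt and Slc25a40. In PR F1, 5 were higher and 4 lower, with a median log2 difference of 0.08 against -0.00481 over all genes tested. The median was -0.17 in PC F2 and -0.16 in PR F2, where 7 and 8 of the 9 were lower, against medians of -0.00579 and 0.0025 over all genes. None of the 9 passed in limma in PR F1, PC F2 or PR F2, against 0.0227%, 0.00756% and 2.61% of all genes. The lowest adjusted p was 0.0974, for Hars2, a mitochondrial histidine tRNA synthetase, in PR F2, with a log2 difference of -0.48.

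Gpd2, the mitochondrial glycerol-3-phosphate dehydrogenase, had log2 differences of -0.51 (limma, adjusted p = 0.398) in PC F2 and -0.36 (limma, adjusted p = 0.235) in PR F2. Top1mt, the mitochondrial topoisomerase, had -0.82 in PC F2 (limma, adjusted p = 0.328) and -0.33 in PR F1 (limma, adjusted p = 1). Polg, the catalytic subunit of the mitochondrial DNA polymerase, was 0.48 in PR F2 (limma, adjusted p = 0.217), opposite in sign to its -0.75 in PC F1. These values did not pass, and none of these genes is a chaperone or import factor.

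**Figure D5:**
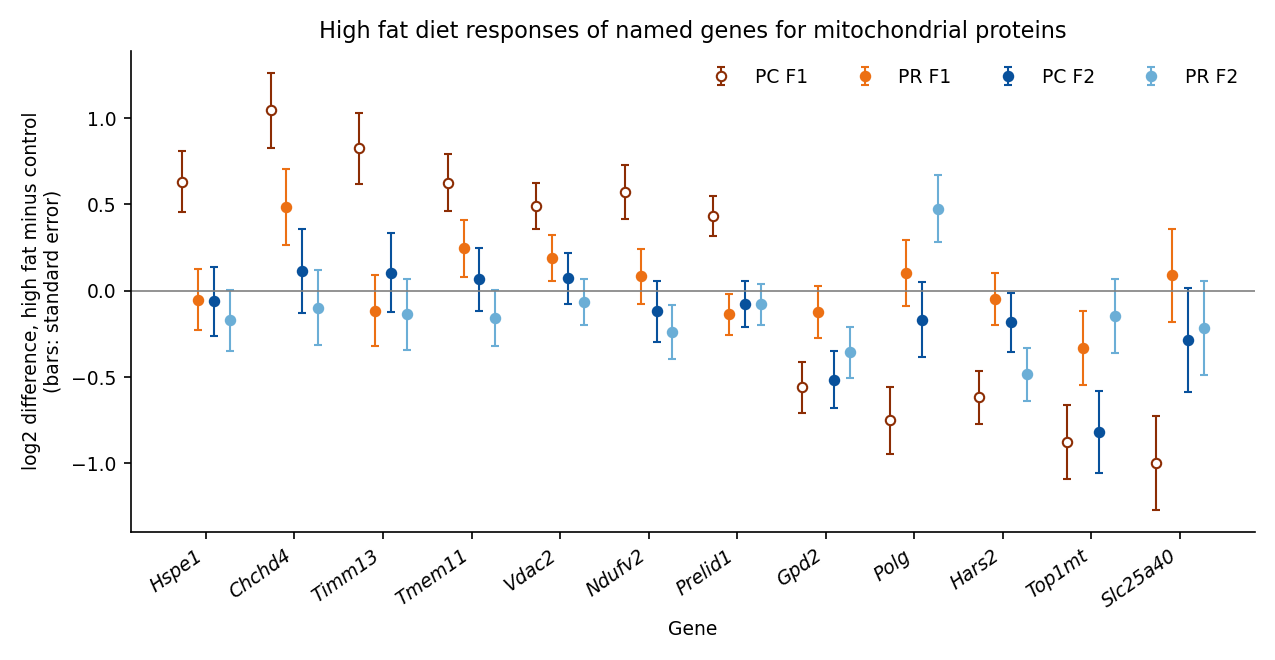
Difference of mean log2(normalized count + 1), high fat minus control chow, with limma standard errors, for Hspe1, Chchd4, Timm13 and 9 other named genes of mitochondrial proteins in the 4 arms. Open points are PC F1, the comparison from which the names were taken. No filled point passed the test, and Chchd4 in PR F1 and Polg in PR F2 are the filled points farthest above 0.

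Genes linked to folding in the cytosol and endoplasmic reticulum gave another view of the same arms. The list is broad and includes the transcription factor Xbp1 and Tusc3, an oligosaccharyltransferase subunit. Of its 11 named genes, 8 were higher on high fat chow in PR F1, 8 in PC F2 and 4 in PR F2. Their median log2 differences were 0.22, 0.10 and -0.06, against -0.00481, -0.00579 and 0.0025 over all genes tested. In PC F1 all 11 were higher, with a median of 0.55. Nothing is read from this, because the names come from the genes that the study lists for that comparison. In PR F1, Hspa8, the constitutive cytosolic Hsp70, had a log2 difference of 0.68 (limma, unadjusted p = 0.0143, adjusted p = 1), and Dnajb1, its co-chaperone, 0.38 (limma, unadjusted p = 0.0274, adjusted p = 1). Dnajb11, an Hsp70 co-chaperone of the endoplasmic reticulum, had 0.31 (limma, unadjusted p = 0.038, adjusted p = 1). Hspa8, Dnajb1 and Dnajb11 are given first because their unadjusted p in PR F1 was under 0.05. Over all 13224 genes tested in PR F1, 428 had an unadjusted limma p under 0.05. The other genes of the list that were higher in PR-H had 0.32 (Manf), 0.25 (Cacybp), 0.22 (Hspa14), 0.17 (Cct2) and 0.17 (Xbp1). Those lower in PR-H had -0.06 (Cct3), -0.08 (Dnajc25) and -0.09 (Tusc3). Chchd4 at 0.49 lay between Hspa8 and Dnajb1, and Hspe1 at -0.05 lay below the list's median. In PC F2, where 8 of the 11 were higher and 3 lower, Dnajb1 had 0.52 (limma, unadjusted p = 0.00839, adjusted p = 0.437). There 1012 of all genes tested had an unadjusted limma p under 0.05. None of the 11 passed in PR F1, PC F2 or PR F2, against 0.0227%, 0.00756% and 2.61% of all genes.

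Over the 23 libraries, the genes whose log2 counts were most like those of Hspe1 among 11229 genes with a mean of at least 50 were Mcts1 (Pearson's r = 0.946), ENSCPOG00000037400 (r = 0.929) and ENSCPOG00000014047 (r = 0.926). For Chchd4 they were Tmem11, a mitochondrial inner membrane protein (r = 0.899), ENSCPOG00000023840 (r = 0.856) and Avpi1 (r = 0.855). Hspe1 and Chchd4 had r = 0.76 with each other, which placed Chchd4 480th for Hspe1 and Hspe1 56th for Chchd4. These correlations are descriptions over libraries that include PC-C and PC-H, and libraries of 1 group share their treatment. Reads from near-identical copies, such as processed pseudogenes, could not be told apart from those of either gene.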

How the data were processed

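RNA of the carotid endothelium was sequenced in 24 guinea pigs, grouped by their labels (3 a group). The submitters' processing notes name FastQC, Trimmomatic, STAR and DESeq2. Versions, genome build, annotation and counting program are not given in the sources used here. The signal values deposited by the authors are gene-level reads scaled in each library by its own size factor, as DESeq2 computes it. All 100% of the values came out as whole reads within 0.01 reads, and the table held 18149 genes. Positions and sequences were not used here. Gene names come from the study's list for the diets in PC F1, which paired 147 identifiers, and the reference table matched 0.

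Because the values were normalized, limma 3.58.1 (R 4.3.3) was run with a trend on log2(normalized count + 1) over 13224 genes whose mean was 10 or more. A single fit held 8 group means and 23 libraries, with 15 residual degrees of freedom and 5.17 prior ones. Benjamini-Hochberg adjustment ran over all genes within each comparison, with a threshold of 0.05. PC-C-H animal 51 was left out because the study lists 23 animals and reports 1 failed PC-C-H sample. On the recovered reads, edgeR 4.0.16 (quasi-likelihood) and DESeq2 1.42.0 (Wald test, the study's method) were alternatives. Others were TMM scaling, pseudocounts of 0.1 and 10, no filter, only the groups compared, sex, each animal left out, and all 24 libraries. A term for the division of the libraries, its low side alone, DESeq2 with 24 libraries and the ratio of the genes were added after the values were seen. Exact permutation tests and 100000 permutations for the correlation used numpy 2.4.6, and the correlation coefficients used scipy 1.17.1. The limma step was tested on simulated data.

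Both genes and all gene lists were chosen with earlier results of these data known. Named were both genes, every listed gene with an identifier and a mean of at least 10, and for each gene the 3 with the highest Pearson's r among those with a mean of at least 50. Reads ranged from 14061522 to 31148123 a library. No molecular identifiers were used, so reads may repeat a molecule, and the errors from reads cover counting error only.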

Additional observations from a re-analysis of the deposited data

Results flagged for a closer look

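PC-C-H animal 51, which the tests left out, had normalized counts of 3441 for Hspe1 and 621 for Chchd4. Both lay above the highest PC-C-C animal on control chow, at 1720 and 465, and in normalized counts Hspe1 lay above all other libraries. In RPM, reads relative to the library's total and independent of the size factor, animal 51 had 110 for Hspe1, against 52.9 to 69.8 in the other 5 PC-C-C and PC-C-H animals, and 19.9 for Chchd4, against 13.7 to 18.9. On that scale its Hspe1 lay below PC-H animals 11 and 34, at 111 and 117. The median Pearson's r of this library with the others was 0.835, against 0.936 to 0.974 for the remaining 23. The part of RNA quality in these counts was not tested.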

How the results depend on the processing

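Of 424 alternative values over 23 results, 398 kept their direction and their side of the threshold, 25 changed sign and 1 lost its call. No tested value of either gene passed the adjusted threshold under any of them. The correlation of deviations between the genes lost its call among animals outside the 6 libraries that stood apart (r = 0.653, permutation p = 0.0749), where 11 rather than 17 animals entered. Hspe1 in PR-C vs PR-C-C was -0.0028 in DESeq2 and -0.00105 in DESeq2 with 24 libraries. With animal 51, Hspe1 was 0.35 for the PC F2 diet response (0.46 in DESeq2), 0.0411 for the mean of the 3 responses (0.0821 in DESeq2, and 0.0411 in the exact permutation) and -0.15 for the ration on high fat chow in F2 (-0.27 in DESeq2), and Chchd4 was -0.14 in the last of these (-0.16 in DESeq2). With a term for the division of the libraries, Chchd4 was -0.17 for PC F2 and -0.0736 for the mean of the 3 responses. The cause of these changes was not tested, beyond the library or term added. The term rests on PC-C-C animal 52 against 54 and 55 alone.

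Leaving out each animal in turn moved Hspe1 from -0.18 to 0.0887 in PR F1, -0.29 to 0.17 in PC F2, -0.26 to 0.0046 for the PR change from F1 to F2, -0.34 to 0.12 for the F2 difference between rations, -0.10 to 0.15 in PR-C vs PR-C-C and -0.24 to 0.0151 in PR-H vs PR-C-H. Hspe1 also ranged from -0.17 (without PC-C-H 53) to -0.0172 (without PC-C-H 50) for the mean of the 3 responses, from 0.23 (without PC-C-C 55) to 0.45 (without PC-C-C 52) for the ration on control chow in F2, and from 0.0255 (without PC-C-H 50) to 0.49 (without PC-C-H 53) on high fat chow. The sign turned without PR-C 25 or PR-H 23 in PR F1, and without PC-C-C 52 or PC-C-H 50 in PC F2. Chchd4 ranged from -0.36 (without PC-C-C 52) to -0.0786 (without PC-C-C 55) for the F2 difference between rations, from -0.0206 (without PC-C-C 55) to 0.26 in PC F2, and from 0.31 to 0.70 in PR F1 with a lowest limma adjusted p of 0.792. Without PC-C-H 50 or 53 the animal left is assumed to vary like those of other groups. No paired analysis was possible because animal numbers are not shared between groups and litters are not given in the labels. Over all genes, limma called 3, 1, 345, 290, 10 and 302 for the diet in PR F1, PC F2 and PR F2, their mean, the PR change and PR-C vs PR-C-C, where DESeq2 called 15, 48, 682, 664, 160 and 661 and edgeR 1, 1, 299, 268, 14 and 247.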
